A study of Homo sapiens with 9 samples.

Results

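The NDRG family (N-myc downstream regulated gene family) has 4 members, NDRG1, NDRG2, NDRG3 and NDRG4, which were taken by gene symbol from the 60683 genes listed. The family was chosen with earlier results of these data known. All 4 had enough counts to be tested. They were measured by RNA-seq in Hep3B cells, an established human hepatocellular carcinoma line, after 24 hours in 3 groups of 3 cultures. Vehicle was DMSO. The groups were vehicle at 20% O2, vehicle at 1% O2 and 32-134D at 1% O2. All came from 1 cell line grown in serum-containing medium in 6-well plates. 32-134D is a small-molecule inhibitor of the hypoxia-inducible factors (HIFs). The labels state no dose, and the methods give 5 μM. No cells received 32-134D at 20% O2, so what the compound does to these genes without hypoxia was not measured.

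NDRG proteins share an α/β-hydrolase fold but are not known to act as hydrolases. NDRG1 takes its name from its repression by MYC proteins, is a textbook hypoxia-induced gene, and is phosphorylated by the kinases SGK1 and GSK3. NDRG2 is abundant in liver and brain and is described as a candidate tumor suppressor. NDRG3 is better known for control of its protein, which is marked for destruction by the oxygen-sensing prolyl hydroxylase EGLN1 together with VHL and which binds lactate. NDRG4 is best known from neurons and heart.

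Hypoxia raised NDRG1 12.9-fold and NDRG4 4.08-fold, lowered NDRG2 3.46-fold and left NDRG3 within the 1.5-fold threshold. With 32-134D in hypoxia, NDRG1 was 8.01-fold and NDRG4 2.94-fold lower than with vehicle, and NDRG2 was 2.18-fold higher. Relative to vehicle at 20% O2, cells given 32-134D at 1% O2 still had 1.61-fold more NDRG1 and 1.59-fold less NDRG2. Both of these calls were lost when certain single libraries were left out.

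Total counts ran from 6013980 to 40549699 per library, and the smallest library was replicate 2 of vehicle at 20% O2. Replicate 3 of 32-134D differed from the other replicates of its group more than any other pair of replicates did, with values of chi-square over its degrees of freedom of 36.2 and 40.5 across genes, against 1.64 to 13.3 for the other pairs. Values of the members, and of some other named genes in which it stands apart from its group, are given with and without it. Of 10 hepatocyte markers, among them ALB, AFP and HNF4A, none was at 0 in any group. Their summed level was 19590 to 21021 CPM (counts relative to the library total, here without scaling between libraries) in vehicle at 20% O2, 12545 to 15186 in vehicle at 1% O2 and 12301 to 18763 with 32-134D. By the rule given below, 8 of the 10 were not called in hypoxia, and the median log2 fold change was -0.07. The 2 called were AFP and APOB, both lower, APOB from a mean of 4487 to 406 CPM when scaled between libraries. For 32-134D against vehicle at 1% O2, 1 was called higher (APOB) and 3 lower (FGB, TF and TTR), with a median of -0.21. The 3 lower ones were widely spread with 32-134D, from 6.86 to 33.5, 584 to 1545 and 9.79 to 37.9 CPM on the same scale. Leukocyte markers summed to at most 2.28 CPM and endothelial markers to at most 1.33 CPM in any library. In bulk RNA, fewer cells with a transcript and less of it per cell cannot be told apart.

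Calls needed a Benjamini-Hochberg false discovery rate (FDR) below 0.05 over the 22672 genes tested and a fold change above 1.5, in edgeR's quasi-likelihood test. The response to hypoxia was broad, with 39.7% of all tested genes called, 19.5% higher and 20.3% lower. In that background, 3 of 4 members were called, NDRG1 and NDRG4 as higher and NDRG2 as lower. For 32-134D against vehicle at 1% O2, 29.9% of tested genes were called, 16.2% higher and 13.7% lower, and again 3 of 4 members were called. Comparing 32-134D at 1% O2 with vehicle at 20% O2, 3.52% of tested genes were called, 3% higher and 0.516% lower, and 2 of 4 members were among them. The lower share depended on single libraries, from 0.154% without replicate 2 of vehicle at 20% O2 to 0.917% without replicate 1 of 32-134D. The hypoxia comparison and the compound comparison share the libraries of vehicle at 1% O2, so they are not independent, and their values stand side by side without a test of their relation.

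Sequence was at hand for the regions before the transcript starts of NDRG2 and NDRG4, the called members that moved in opposite directions, and one window of each is shown because HIF dimers bind DNA at the short core ACGTG or GCGTG. Both strands were searched, so a match on the other strand reads CACGT or CACGC. Each line runs 5′ to 3′ over the 250 bases before a RefSeq transcript start in GRCh38.p14, with matches in capitals. The NDRG4 window is chr16:58463465-58463714 on the plus strand. The NDRG2 window is chr14:21025106-21025355 on the minus strand.
NDRG4: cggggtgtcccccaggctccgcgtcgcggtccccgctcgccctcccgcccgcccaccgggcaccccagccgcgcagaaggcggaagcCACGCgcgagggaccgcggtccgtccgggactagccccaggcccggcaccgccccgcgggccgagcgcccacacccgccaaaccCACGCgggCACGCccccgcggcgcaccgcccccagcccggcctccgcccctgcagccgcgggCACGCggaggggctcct
NDRG2: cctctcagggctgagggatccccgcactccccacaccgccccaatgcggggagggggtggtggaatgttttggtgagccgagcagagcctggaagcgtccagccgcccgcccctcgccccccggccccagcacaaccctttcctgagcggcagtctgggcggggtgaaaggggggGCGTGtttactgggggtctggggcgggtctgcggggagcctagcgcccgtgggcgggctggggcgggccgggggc
The NDRG4 window held 4 matches to GCGTG, which begin at -163, -79, -71 and -17 counted from the transcript start. The NDRG2 window held 1, at -75. No match shared a base with another, and ACGTG was in none of the 5 NDRG2 and 4 NDRG4 windows that RefSeq gives, which also take in the first bases of the transcript. The other 3 NDRG4 windows held no GCGTG, so the window shown is the NDRG4 window with the most matches. Of the other NDRG2 windows, that of the start at 21025061 held the same match, that of the outermost start at 21070872 held 1, and the remaining 2 held none. Among all 35116 windows of the same length, 36.5% held GCGTG at least once, 1.63% held it 4 or more times, and 21.4% held ACGTG. In GENCODE version 29, 84 of the 250 bases of the NDRG4 window lay in NDRG4 exons and the rest in its introns. Of the NDRG2 window, 132 bases lay in NDRG2 exons, and the window also lay within introns of TPPP2 and AL161668.4 on the opposite strand. A match is a run of letters and not a shown binding site.

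NDRG1 (ENSG00000104419) lies on chromosome 8 of GRCh38 from 133237171 to 133302022 on the minus strand. In vehicle at 20% O2 its level, in CPM scaled between libraries by the TMM method like all member levels that follow, was 63.3, 72.7 and 68.0 CPM in replicates 1, 2 and 3, and in vehicle at 1% O2 it was 789, 880 and 960 CPM. With 32-134D at 1% O2 it was 122, 126 and 79.5 CPM. The lowest hypoxic library was far above every other library, and the 3 groups did not overlap in any pair. The counts behind these values were 463 to 2236 in vehicle at 20% O2, 18658 to 29785 in vehicle at 1% O2 and 1738 to 4317 with 32-134D.

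Hypoxia raised NDRG1 by 3.69 on the log2 scale (SE 0.15; edgeR, FDR = 1.01e-10), which placed it 272nd from the top among the 22672 tested genes. With 32-134D it fell by 3.001 (SE 0.14; edgeR, FDR = 1.72e-09), the 73rd lowest of all log2 fold changes in that comparison. It remained above the level in vehicle at 20% O2 by 0.69 (SE 0.14; edgeR, FDR = 0.00579). Replicate 3 of 32-134D stood at 0.640 times the mean of replicates 1 and 2. Without it, the difference from vehicle at 1% O2 was -2.82 and that from vehicle at 20% O2 was 0.88. Without replicate 2 of 32-134D the latter was 0.58, just under the 1.5-fold threshold.

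**Figure D1:**
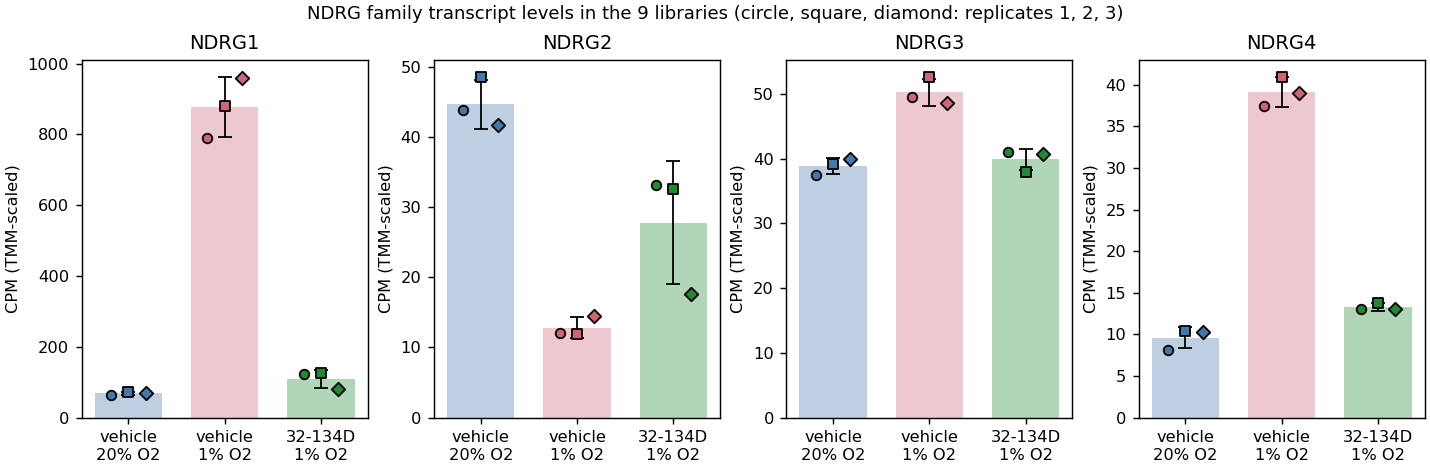
Level of each NDRG member in CPM (TMM-scaled, linear axis from 0) in the 9 libraries, with bars at the group mean, error bars of 1 SD (n = 3) and 1 point per replicate. NDRG1 ran from 789 to 960 CPM in vehicle at 1% O2 and from 63.3 to 126 CPM in the 6 other libraries, NDRG2 was highest in vehicle at 20% O2, and replicate 3 of 32-134D (diamond) was the low point of its group for NDRG1 and NDRG2.

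The part of the hypoxia-induced log2 change that was missing with 32-134D was 81.3% for NDRG1 from the fitted values. Computed for each 32-134D library against the group means it was 82.2% ± 10.1 (SD, n = 3), from 75.8% to 93.8%, and the fitted share without replicate 3 of 32-134D was 76.3%. It was 76.8% for NDRG4, 62.8% for the hypoxic decrease of NDRG2 and 90.3% for the small increase of NDRG3. These shares are given without a spread. Without replicate 3 of 32-134D, NDRG2 fell by 1.78 in hypoxia and was higher by 1.36 with 32-134D, so its missing share was larger. NDRG4 was then at 2.02 and -1.54, and NDRG3 at 0.37 and -0.35. As a description beside these, the missing share with all libraries was 87.6% for EPO (erythropoietin), 76.6% for CA9 (carbonic anhydrase 9), 70.9% for ANGPTL4 and 73.8% for VEGFA, which are known HIF targets. RPL13A, a ribosomal protein gene, was the remaining member of this list of 5 comparators, at 72.2%. The paper describes RPL13A as not induced by hypoxia and not under HIF control. By RT-qPCR it reported no effect of 32-134D on this gene. For NDRG1, the same assays in Hep3B cells showed hypoxic induction that 32-134D inhibited. The paper describes NDRG1 as a target of HIF-2 alone in these cells. The share of RPL13A, which is 1 gene only, lay within the 70.9% to 87.6% of the known HIF targets listed. Both terms of each share use the libraries of vehicle at 1% O2, so a deviation of that group moves them together. The share was not computed over all genes called in hypoxia. Whether a share of this size is particular to HIF targets was therefore not tested. Why RPL13A differed between the RT-qPCR and these counts was not tested. All 5 comparators were called higher in hypoxia and lower with 32-134D, with a median log2 fold change of 3.82 and -3.35, against 0.00 and -0.01 over all tested genes. EPO rose by 3.82 (SE 0.26) and fell by 3.35 (SE 0.22). RPL13A rose by 0.87 (SE 0.10) and was at -0.63 with 32-134D (SE 0.10). That call was not stable, since the value was under the fold threshold with DESeq2 (-0.57), scaled by total counts (-0.44), in 4 other settings, and when any of 5 single libraries was left out (-0.57 to -0.52).

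NDRG4 (ENSG00000103034; chromosome 16, 58462846 to 58513628, plus strand) followed the direction of NDRG1 at a much lower level. In vehicle at 20% O2 it was at 8.17, 10.4 and 10.2 CPM in replicates 1, 2 and 3. In vehicle at 1% O2 it was at 37.4, 40.9 and 39.0 CPM, and with 32-134D at 13.05, 13.8 and 12.99 CPM. Every hypoxic vehicle library exceeded every other library, and the 32-134D libraries all lay above those of vehicle at 20% O2. The counts were 66 to 337 in vehicle at 20% O2, so these are the least deeply counted values of the family. Hypoxia raised NDRG4 by 2.03 (SE 0.11; edgeR, FDR = 1.15e-09) and 32-134D lowered it by 1.56 relative to hypoxic vehicle (log2 fold change -1.56, SE 0.10; edgeR, FDR = 1.98e-08). Its excess over vehicle at 20% O2 was 0.47 (SE 0.11; edgeR, FDR = 0.0132), or 1.39-fold, which was under the fold threshold and so not called. Replicate 3 of 32-134D was not apart here, at 0.967 times the mean of the other 2, and the values without it were -1.54 and 0.48.

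NDRG2 (ENSG00000165795; chromosome 14, 21016763 to 21070872, minus strand) went the other way. In vehicle at 20% O2 it was at 43.8, 48.5 and 41.6 CPM in replicates 1, 2 and 3. In vehicle at 1% O2 it was at 12.01, 11.9 and 14.5 CPM. With 32-134D it was at 33.2, 32.6 and 17.6 CPM. The hypoxic vehicle libraries were the lowest, and the 32-134D libraries lay between the vehicle groups without overlap, although replicate 3 was at 0.535 times the mean of the other 2 and close to hypoxic vehicle. NDRG2 fell by 1.79 in hypoxia (log2 scale, SE 0.19; edgeR, FDR = 1.22e-06). It was higher by 1.12 with 32-134D (SE 0.18; edgeR, FDR = 0.000136), or by 1.36 without replicate 3.

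The remaining deficit of NDRG2 against vehicle at 20% O2 was less firm. It was -0.67 (SE 0.18; edgeR, FDR = 0.0295) with all libraries and -0.42 (edgeR, FDR = 0.00212) without replicate 3 of 32-134D, under the fold threshold. The FDR rose above 0.05 when any 1 vehicle library at 20% O2 (0.0697 to 0.12), replicate 2 of vehicle at 1% O2 (0.0587) or replicate 3 of vehicle at 1% O2 (0.0503) was left out, all by edgeR. It was also above 0.05 when only the 2 groups compared were fitted (-0.68; edgeR, FDR = 0.0721).

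NDRG2 and NDRG4 are known from brain, so a short neural marker list (SNAP25, GFAP and RBFOX3) is given beside them. Its summed level was 40.9 to 44.8 CPM in vehicle at 20% O2, 7.10 to 8.79 in vehicle at 1% O2 and 27.3 to 35.4 with 32-134D, all but a trace of it from SNAP25, since RBFOX3 had at most 3 counts and GFAP at most 8 in any library and RBFOX3 was at 0 throughout vehicle at 20% O2. SNAP25 fell by 2.19 in hypoxia (SE 0.13) and was higher by 1.82 with 32-134D (SE 0.12). The fibroblast markers COL1A1, COL3A1 and PDGFRB summed to 34.0 to 37.5, 11.8 to 12.9 and 29.02 to 31.2 CPM in the same order, with COL3A1 at 0 in vehicle at 20% O2 and with 32-134D. Both sums moved in the direction of NDRG2 and against NDRG4, and their part in either result was not tested.

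NDRG3 (ENSG00000101079; chromosome 20, 36651766 to 36746078, minus strand) was the most even member. In vehicle at 20% O2 it was at 37.4, 39.3 and 40.0 CPM in replicates 1, 2 and 3. In vehicle at 1% O2 it was at 49.5, 52.6 and 48.7 CPM, and with 32-134D at 40.98, 38.0 and 40.7 CPM. The hypoxic vehicle libraries lay above all others, and the 32-134D libraries overlapped those of vehicle at 20% O2. Its spread between replicates was small, with a coefficient of variation from 3.36% to 4.17%, so differences of this size passed the FDR although not the fold threshold. The log2 fold change was 0.37 in hypoxia (SE 0.08; edgeR, FDR = 0.000793) and -0.33 with 32-134D (SE 0.07; edgeR, FDR = 0.00175). Scaling by total counts alone moved the median of all tested genes to -0.21 in hypoxia and 0.17 with 32-134D, and the NDRG3 values to 0.16 and -0.15, with FDRs of 0.106 and 0.13 in edgeR. Relative to those medians NDRG3 was at 0.36 and -0.32, as in the main scaling. Against vehicle at 20% O2 the difference with 32-134D was 0.04 (95% interval -0.11 to 0.19; edgeR, FDR = 0.832). Without replicate 3 of 32-134D, NDRG3 was at -0.35 against hypoxic vehicle and 0.02 against vehicle at 20% O2.

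**Figure D2:**
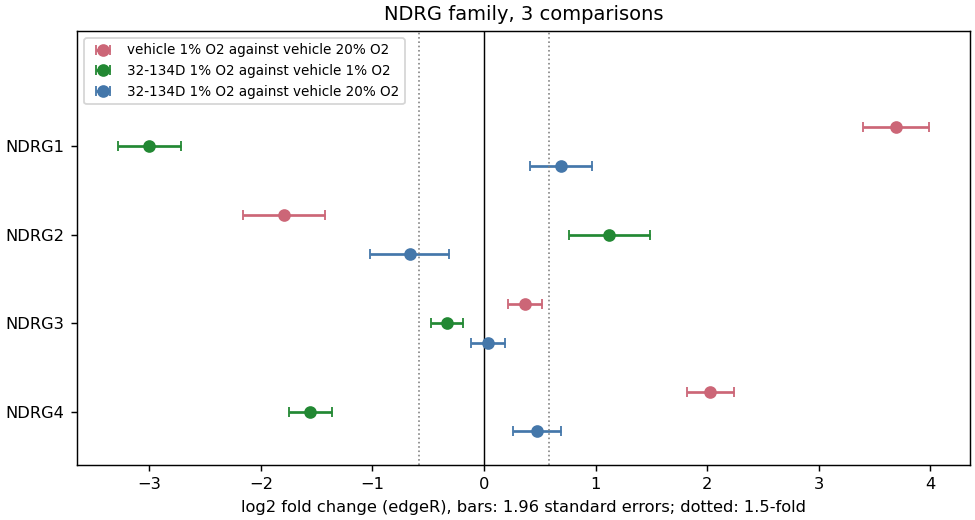
Fitted log2 fold change of the 4 members (x axis, edgeR) in the 3 comparisons, with bars for 95% intervals and dotted lines at 1.5-fold. NDRG1 and NDRG4 rose in hypoxia by 3.69 and 2.03 and were at -3.001 and -1.56 with 32-134D, NDRG2 had the opposite signs, and NDRG3 lay inside the dotted lines in all 3 comparisons.

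Levels of different genes were compared per kilobase of exon, as CPM divided by the summed length of all annotated exons. In vehicle at 20% O2 the order was NDRG3 at 11.97 ± 0.40, NDRG1 at 6.92 ± 0.48, NDRG2 at 5.91 ± 0.47 and NDRG4 at 0.995 ± 0.128 CPM per kb (SD, n = 3). NDRG1 and NDRG2 were the closest neighbours there, apart by more than the SD of either. In vehicle at 1% O2, NDRG1 came first at 89.2 ± 8.68, followed by NDRG3 at 15.5 ± 0.64, NDRG4 at 4.06 ± 0.18 and NDRG2 at 1.70 ± 0.19 CPM per kb. All neighbours in that order were apart by more than their spread. With 32-134D, NDRG3 at 12.3 ± 0.51 and NDRG1 at 11.1 ± 2.63 CPM per kb did not differ beyond their spread, with NDRG2 at 3.68 ± 1.17 and NDRG4 at 1.38 ± 0.05 after them. The order depends on which transcripts are expressed: with the longest transcript as the length, NDRG1 led in vehicle at 20% O2 at 17.1, with NDRG2 at 15.5 and NDRG3 at 13.1 CPM per kb, and led with 32-134D at 27.4 against 13.4 for NDRG3.

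Added together, the 4 members amounted to 25.8 ± 1.18 CPM per kb in vehicle at 20% O2, 110.4 ± 8.85 in vehicle at 1% O2 and 28.5 ± 3.62 with 32-134D (SD, n = 3). NDRG1 made up 26.8% ± 0.62, 80.7% ± 1.47 and 38.7% ± 4.78 of that sum. NDRG2 took 22.9% ± 1.34, 1.54% ± 0.11 and 12.7% ± 2.69 in the same order. The family sum was therefore mostly NDRG1 in hypoxic vehicle and shared mainly among NDRG3, NDRG1 and NDRG2 otherwise. NDRG3 took 46.4% ± 1.49, 14.1% ± 1.28 and 43.7% ± 6.90, and NDRG4 stayed between 3.68% and 4.88% in all 3 groups. Without replicate 3 of 32-134D, the shares in that group were 41.4% for NDRG1, 14.3% for NDRG2, 39.8% for NDRG3 and 4.56% for NDRG4, so NDRG1 and NDRG3 changed places. Over the longest transcripts the share of NDRG1 was 35.9%, 88.3% and 51.3%.

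**Figure D3:**
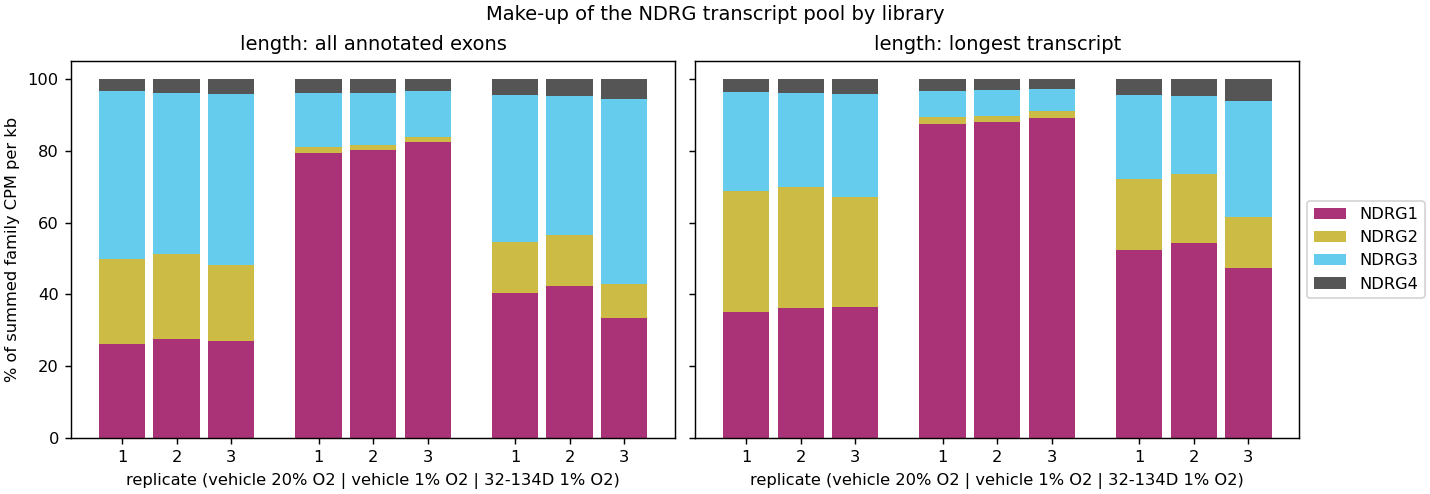
Make-up of the NDRG transcript pool in each library (stacked bars, % of the summed CPM per kb), with lengths from all annotated exons on the left and from the longest transcript on the right. NDRG1 fills 80.7% of the bar on average in vehicle at 1% O2 on the left and 88.3% on the right, and the share of NDRG2 there is 1.54% and 1.79%.

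The ratio of NDRG1 to another member within 1 library does not depend on scaling between libraries. The mean log2 ratio of NDRG1 to NDRG2 counts was 0.61 ± 0.09 in vehicle at 20% O2, 6.10 ± 0.09 in vehicle at 1% O2 and 2.002 ± 0.15 with 32-134D (SD, n = 3). The hypoxic shift of 5.49 is a 44.9-fold change in their balance. The ratio to NDRG3 was 0.80 ± 0.07, 4.12 ± 0.16 and 1.42 ± 0.40, and the ratio to NDRG4 was 2.83 ± 0.11, 4.48 ± 0.12 and 3.01 ± 0.35. NDRG1 thus gained on every other member in hypoxia, least on NDRG4 (1.66), and lost ground with 32-134D by -4.09, -2.70 and -1.47 against NDRG2, NDRG3 and NDRG4 (-4.18, -2.47 and -1.27 without replicate 3 of 32-134D). The 9 comparisons of these ratios all hold NDRG1 and reuse the same libraries, so they are not independent. How often ratios of other genes overlap between the groups was not computed. In 8 of these 9 comparisons the groups did not overlap, and the exact two-sided permutation test gave p = 0.1, the smallest that 3 against 3 libraries can give (0.1125 after adjustment over the 9), so none can pass 0.05. The exception was NDRG1 against NDRG4 for 32-134D relative to vehicle at 20% O2, with a difference of 0.18 (exact permutation p = 0.4, adjusted p = 0.4). Its overlap came from replicate 3 of 32-134D, at 2.61, since replicates 1 and 2 at 3.23 and 3.19 lay above all libraries of vehicle at 20% O2, and the difference without replicate 3 was 0.38.

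The genes whose profile over the 9 libraries lay closest to each member were found among 12911 genes by the root mean square distance of centred log2 CPM. Because they were picked on these same libraries, similar fold changes and a similar replicate 3 follow from the choice. For NDRG1 they were PPP1R3G, a glycogen-targeting subunit of protein phosphatase 1 (distance 0.143), the mitophagy receptor BNIP3 (0.184), SPAG4 (0.187), the BNIP3 relative BNIP3L (0.233) and the ligand EFNA1 (0.254). BNIP3 rose by 3.90 in hypoxia (SE 0.11) and was at -2.92 with 32-134D (SE 0.10). PPP1R3G rose by 3.82 (SE 0.15) and was at -3.30 (SE 0.14). Its lowest 32-134D value was in replicate 3, and the difference without that replicate was -3.12. For NDRG4 the closest were PPP2R5B, a regulatory subunit of protein phosphatase 2A (0.0969), the transporter SLC15A4 (0.0976) and SPSB1 (0.122). For NDRG2 they were CEBPA-DT, the transcript divergent to the liver transcription factor gene CEBPA (0.0626), the epoxide hydrolase EPHX2 (0.0925) and PROZ, which encodes protein Z of plasma (0.0951). EPHX2 fell by 1.95 in hypoxia (SE 0.22) and was higher by 1.26 with 32-134D (SE 0.22), or by 1.51 without replicate 3. For NDRG3 they were MBD1 (0.0368), the import receptor IPO13 (0.0370) and PSMF1, a proteasome inhibitor (0.0446), whose small changes in hypoxia of 0.38, 0.43 and 0.47 were likewise within 1.5-fold.

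**Figure D4:**
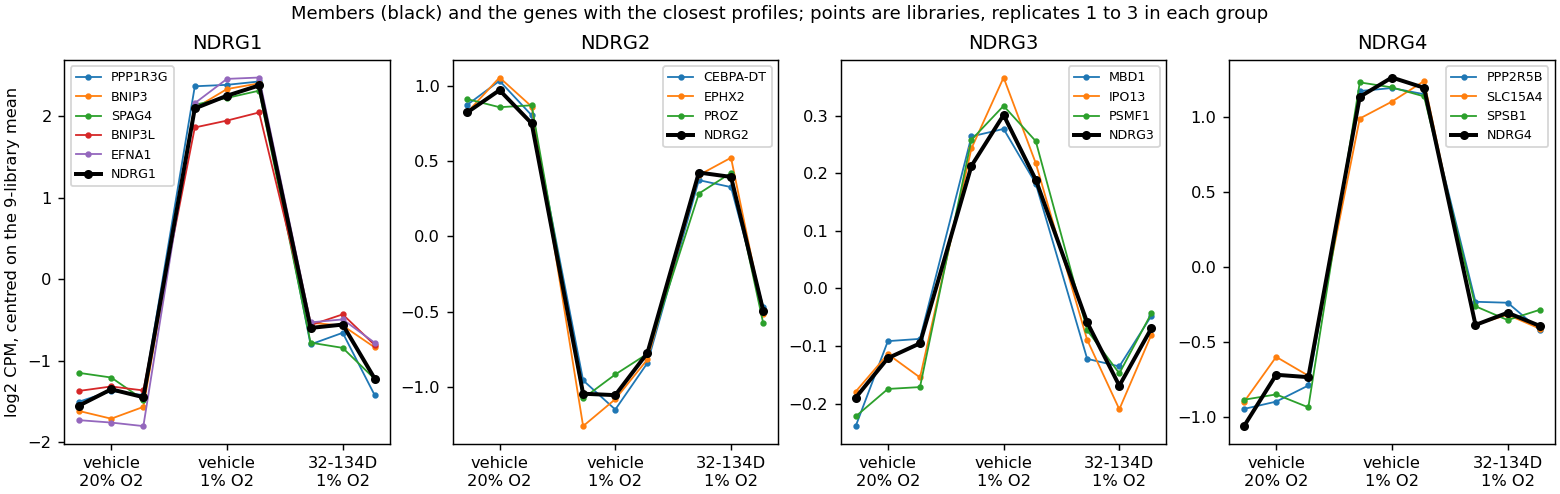
Log2 CPM centred on the mean of the 9 libraries (y axis) for each member in black and the genes with the nearest profiles in color, with replicates 1 to 3 of each group from left to right and lines that only join points of 1 gene. The y ranges differ between panels: NDRG3 and its neighbours span less than 1 log2 unit, and NDRG2 and its neighbours share the lower replicate 3 of 32-134D. Neighbours were picked for closeness in these same libraries.

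The genes around the family were taken in lists of 10 to 13 genes, to be read against the shares over all tested genes, 39.7% called in hypoxia and 29.9% with 32-134D, and against all-gene medians of 0.00 and -0.01. Of 13 genes for kinases that act on NDRG proteins, and regulators of those kinases, more were called lower than higher in hypoxia. There 1 of 13 was called higher and 6 lower, with a median log2 fold change of -0.54. With 32-134D, 3 of 13 were called, near the 29.9% over all tested genes, all higher and with a median of 0.45. SGK3, named because its call with 32-134D turned on the setting, was at 0.62 (SE 0.26; edgeR, FDR = 0.0588) and was called with DESeq2 (0.67, FDR = 0.0452). It was also called with some other scalings and filters, such as total counts (0.81), and without replicate 3 of 32-134D (0.88). Its 32-134D levels were 3.23, 3.40 and 1.60 CPM in replicates 1, 2 and 3. Replicate 3 lay within the 1.48 to 2.17 CPM of hypoxic vehicle. SGK1, the kinase best known for phosphorylating NDRG1, fell by 2.29 in hypoxia (SE 0.32; edgeR, FDR = 2.21e-05) and was higher by 1.69 with 32-134D (SE 0.31; edgeR, FDR = 0.000417). With 32-134D SGK1 was at 89.1, 85.7 and 24.6 CPM in replicates 1, 2 and 3, so replicate 3 was just above the 18.8 to 22.2 CPM of hypoxic vehicle, and the difference without it was 2.08. SGK2 fell by 1.54 (SE 0.09) and MTOR, the kinase upstream of SGK1, by 1.12 (SE 0.09), and with 32-134D they were higher by 1.20 and 0.98. GSK3A, the member called higher in hypoxia, is named for that single call, at 0.77 (SE 0.07), and was under the fold threshold when scaled by total counts (0.55). These are transcript levels, and phosphorylation of NDRG1 was not measured.

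In the MYC network, which gives the family its name, 5 of 12 genes were called higher and 2 lower in hypoxia (median 0.38), and 1 was called higher and 2 lower with 32-134D (median -0.19). MXI1, an antagonist of MYC that pairs with MAX, rose by 3.57 (SE 0.12; edgeR, FDR = 1.4e-11) and was at -2.66 with 32-134D (SE 0.10; edgeR, FDR = 3.01e-10). MXD1, of the same antagonist group, rose by 1.99 (SE 0.09) and was at -0.92 (SE 0.08). MXD3, another of that group, fell by 1.64 (SE 0.23) and was higher by 0.96 (SE 0.23) with 32-134D. MXD3 levels with 32-134D were 17.4, 16.2 and 7.41 CPM, and replicate 3 lay within the 6.60 to 7.501 CPM of hypoxic vehicle, so these groups overlapped. Without it the difference was 1.24. MYC itself, named for its role, rose by 1.08 in hypoxia (SE 0.13; edgeR, FDR = 4.63e-06), so NDRG1 and MYC transcripts were both higher there. With 32-134D MYC was at -0.38 (SE 0.13; edgeR, FDR = 0.0208), within 1.5-fold, and at -0.62 without replicate 3 of 32-134D, which then was called.

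Among 10 genes of HIF subunits and oxygen sensing, 2 were called higher and 2 lower in hypoxia (median 0.20), and 1 higher and 2 lower with 32-134D (median -0.04), about the shares called over all tested genes. EGLN1, the hydroxylase that marks NDRG3 and HIF-α proteins, rose by 2.48 (SE 0.08; edgeR, FDR = 1.2e-11) and was at -1.78 with 32-134D (SE 0.08; edgeR, FDR = 6.11e-10). EGLN3 rose by 0.70 (SE 0.19) and was at -1.02 (SE 0.18), and its rise was not called without replicate 3 of vehicle at 1% O2 (0.57), scaled by total counts (0.49) or thinned to the smallest library (0.51; edgeR, FDR = 0.0543). Without replicate 3 of 32-134D, EGLN3 was at -0.81. EGLN2 fell by 1.04 (SE 0.13) and was higher by 0.72 (SE 0.12). HIF1A and EPAS1, which encode the HIF-1α and HIF-2α subunits and are named for their role, were at 0.08 (SE 0.07) and 0.23 (SE 0.08) in hypoxia and at 0.00 (SE 0.07) and -0.08 (SE 0.08) with 32-134D, and 3 of these 4 values change sign under some settings.

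Of the genes around NDRG3 signaling (lactate production and the ERK pathway), 10 of 11 were tested, LDHB not among them. In hypoxia 3 were called higher and 1 lower (median 0.24), and with 32-134D 1 higher and 3 lower (median -0.24). LDHA, the lactate dehydrogenase subunit, rose by 3.46 (SE 0.10; edgeR, FDR = 2.84e-12) and was at -2.38 with 32-134D (SE 0.09; edgeR, FDR = 2.75e-10). MAP2K1, which encodes the kinase MEK1, rose by 1.92 (SE 0.08) and was at -1.21 (SE 0.07). VEGFA, the angiogenic growth factor, rose by 2.45 (SE 0.09) and was at -1.81 (SE 0.09).

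Of 11 described partners and effectors of NDRG1, 10 were tested, KIT not among them. In hypoxia 3 were called higher and 2 lower (median 0.16), and with 32-134D 2 higher and 2 lower (median -0.26). CD82, a tetraspanin described as a metastasis suppressor, fell by 1.39 (SE 0.14) and was higher by 1.14 with 32-134D (SE 0.13). The EGFR feedback inhibitor ERRFI1 rose by 1.43 (SE 0.12) and was at -0.70 (SE 0.11), and the latter was under the fold threshold without replicate 1 (-0.56) or replicate 2 (-0.56) of 32-134D and when scaled by total counts (-0.52). CAV1, the main caveolar protein, rose by 1.33 (SE 0.14) and was at -1.49 (SE 0.14). Without replicate 3 of 32-134D, ERRFI1 was at -0.89 and CAV1 at -1.32. E-cadherin (CDH1), named for its described link to NDRG1, was at -0.46 (SE 0.09) and 0.29 (SE 0.09), within 1.5-fold.

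Of 10 other transcription factors described at NDRG promoters or as their regulators, 9 were tested, WT1 not among them. In hypoxia 4 were called higher and 2 lower (median 0.17), and with 32-134D 2 higher and 4 lower (median -0.02). The stress factor ATF3 rose by 4.51 (SE 0.10) and was at -1.20 with 32-134D (SE 0.08). KLF4 rose by 4.13 (SE 0.16) and was at -1.87 (SE 0.12). EGR1 fell by 1.92 (SE 0.48) and was higher by 2.69 with 32-134D (SE 0.47), or by 1.55 without replicate 3 of 32-134D. CEBPA, a liver factor named because its divergent transcript lay closest to NDRG2, fell by 1.61 (SE 0.29) and was higher by 0.87 (SE 0.28; edgeR, FDR = 0.0189), with an FDR above 0.05 without replicate 1 of vehicle at 1% O2 (0.86; edgeR, FDR = 0.0648) or of 32-134D (0.68; edgeR, FDR = 0.0532), with DESeq2 (0.93; FDR = 0.0541) and in a fit of the 2 groups compared (0.93; edgeR, FDR = 0.0506). Its 32-134D levels were 364, 347 and 111 CPM in replicates 1, 2 and 3 against 147 to 153 CPM in hypoxic vehicle, so replicate 3 went the other way, and the difference without it was 1.25.

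**Figure D5:**
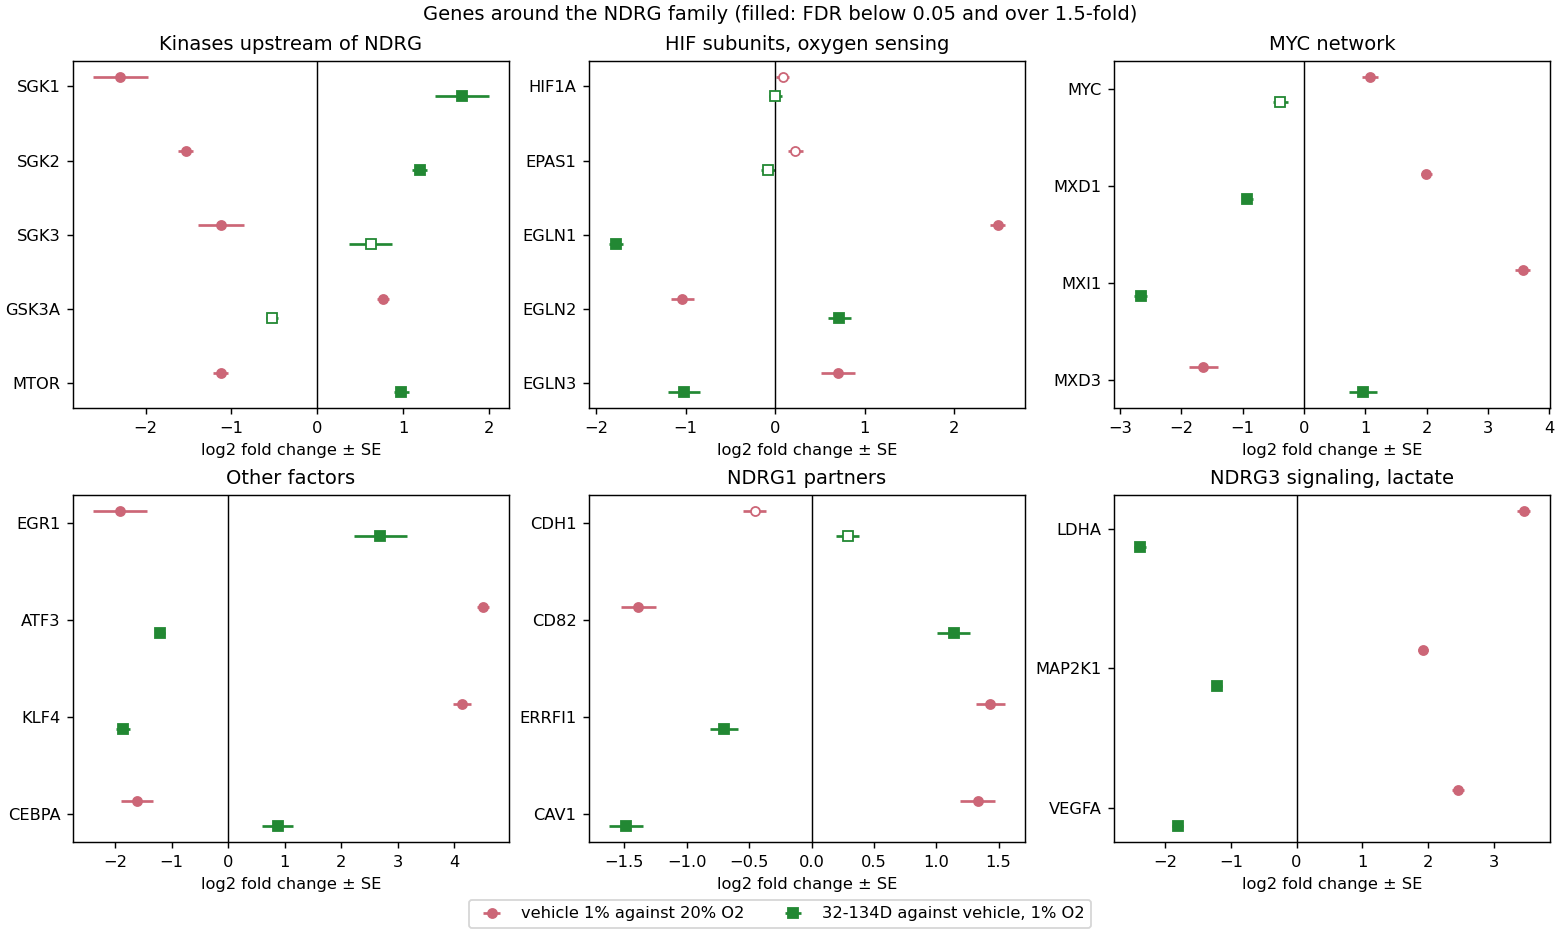
Fitted log2 fold change ± SE (x axis, edgeR) of the genes named here from 6 lists around the NDRG family, for hypoxia (circles) and for 32-134D against vehicle at 1% O2 (squares), filled where FDR was below 0.05 and the fold change above 1.5. MXI1, LDHA, EGLN1 and MAP2K1 lie to the right in hypoxia and to the left with 32-134D, and SGK1, SGK2, MTOR and CD82 lie the other way around.

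Genes that overlap or adjoin the members are given last. No annotated gene overlapped NDRG1, and its nearest protein-coding gene, WISP1, 5481 bases away, had 3 counts over all 9 libraries. On the other side, ST3GAL1, 152826 bases away, had only 90 counts. It was at 1.97 in hypoxia (SE 0.62), which was called, and at -1.08 with 32-134D (SE 0.49), which was not. Both outcomes changed when certain single libraries were left out. NDRG2 shares 236 exon bases with TPPP2 and 173 with AL161668.4, both on the opposite strand, which had 2 and 4 counts in total. The 5′ end of NDRG2 also overlaps the span of ARHGEF40, on the opposite strand and with no shared exon base. ARHGEF40 had 12572 counts, fell by 1.41 in hypoxia (SE 0.11) and was higher by 0.85 with 32-134D (SE 0.11), the same signs as NDRG2. Without replicate 3 of 32-134D, ARHGEF40 was higher by 0.99 with the compound. Because the strand setting of the counting is not given in the sources used here, reads from unspliced transcripts of NDRG2 and ARHGEF40 cannot be told apart. ZNF219, 19174 bases from NDRG2, was at -0.63 (SE 0.08) and 0.30 (SE 0.08). DSN1, 5713 bases from NDRG3, was at 0.30 (SE 0.09) and -0.28 (SE 0.08). Beside NDRG4, GINS3 rose by 1.47 in hypoxia (SE 0.10) and was at -0.90 with 32-134D (SE 0.09), while SETD6, only 1851 bases away, had mean levels of 20.3, 20.5 and 20.2 CPM in vehicle at 20% O2, vehicle at 1% O2 and 32-134D.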

How the data were processed

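RNA from 9 cultures of Hep3B cells (3 groups of 3) was sequenced, and the authors deposited raw counts per Ensembl gene in 1 table. Per the labels, reads were checked with FastQC and MultiQC, mapped to GRCh38 with STAR and counted with featureCounts. Versions and the strand setting are not given in the sources used here. The labels describe DMEM/F12 medium, and the study's methods describe high-glucose DMEM. All count columns matched a sample label, with 0 left over, and no row lacked a gene identifier.

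Counts were scaled by TMM and fitted in 1 edgeR 4.0.16 quasi-likelihood model of the 9 libraries (R 4.3.3). A gene was tested if its counts added up to 10 or more, and p-values were adjusted by Benjamini-Hochberg over all of them. CPM use TMM-scaled library sizes, apart from marker sums, which use library totals. Log2 CPM used a prior count of 2, and within-library ratios a pseudocount of 0.5 counts. The common biological coefficient of variation was 10.5%. Positions and exon lengths came from GENCODE version 29 on GRCh38, where 58496 of the 60683 genes were found (the counts use another Ensembl release of that assembly), and promoter windows from RefSeq (NDRG2 and NDRG4 had entries). NDRG1 and NDRG3 sequences are not shown.

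Named genes were the 4 members, the 3 genes of each list with the largest change called in hypoxia or with 32-134D, whichever comparison gave the larger, the nearest profiles (5 for NDRG1, 3 for the others) and the nearest or overlapping genes. Others are marked where they appear. The members and lists were chosen with earlier results of these data known. The labels call the cultures biological replicates, and p-values measure the spread between them. Samples with the same replicate number did not deviate together (correlations of deviations from -0.09 to 0.04 for 9 pairs, and from -0.09 to 0.11 for 18 other pairs), so the numbers were not used for pairing. No pair of replicates agreed within counting error. Alternatives were DESeq2 1.42.0, other scalings, filters, thresholds, lengths and pseudocounts, fits of only the 2 groups compared, thinning, a block for the replicate number, and dropping each library in turn. The last was added for the within-library ratios after seeing the data.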

Additional observations from a re-analysis of the deposited data

How the results depend on the processing

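The calls of NDRG1, NDRG2 and NDRG4 in hypoxia and with 32-134D against hypoxic vehicle kept their direction and their side of the thresholds under all 19 alternatives run for each. Their log2 fold changes ranged from 3.48 to 3.76 and -3.07 to -2.81 for NDRG1, from -2.03 to -1.74 and 1.04 to 1.36 for NDRG2, and from 1.80 to 2.11 and -1.59 to -1.37 for NDRG4. The comparison with vehicle at 20% O2 was less stable. With a threshold of 2-fold, NDRG1 (0.69) and NDRG2 (-0.67) were no longer called, and NDRG2 was also lost when only the 2 groups compared were fitted (-0.68). Leaving out 1 library gave 0.58 to 0.88 for NDRG1 and -0.81 to -0.42 for NDRG2. With no fold threshold, NDRG3 was called in hypoxia (0.37) and with 32-134D (-0.33), and NDRG4 against vehicle at 20% O2 (0.47). Thinned to the smallest library, the NDRG3 difference from vehicle at 20% O2 turned to -0.0400, and the cause was not tested.

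The share of all genes called was 25.3% in hypoxia and 16.1% with 32-134D at a 2-fold threshold, 47.5% with 32-134D with no fold threshold, and 1.34% and 10.3% in the same order for 32-134D against vehicle at 20% O2. Leaving out 1 library gave 34.8% to 41.4%, 26.5% to 30.3% and 2.51% to 4.34% in the 3 comparisons. Scaled by total counts, 13.6% were higher and 25.8% lower in hypoxia, and 21.0% higher and 8.15% lower with 32-134D. With the longest transcript as the length, the family shares of NDRG1, NDRG2 and NDRG3 were 35.9%, 32.6% and 27.5% in vehicle at 20% O2 and 51.3%, 17.8% and 25.9% with 32-134D. In vehicle at 1% O2 they were 88.3%, 1.79% and 6.81%, with 3.08% for NDRG4. The share of the NDRG1 induction missing with 32-134D was 76.3% to 84.1% with 1 library left out.

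With the replicate number as a block, NDRG1 was at 3.69, -3.02 and 0.67 in the 3 comparisons, NDRG2 at -1.79, 1.09 and -0.70, NDRG3 at 0.37, -0.33 and 0.04, and NDRG4 at 2.03, -1.56 and 0.47. No call of a member changed, and 38.2%, 28.6% and 3.46% of genes were called. Among the other named genes, only HIF1A and EPAS1 changed sign. HIF1A in hypoxia was at -0.13 scaled by total counts, at -0.0272 where each library had to hold 10 counts, and from -0.000419 to 0.144 when 1 library was left out. With 32-134D it was at -0.00711 when low counts were not filtered. EPAS1 with 32-134D was at 0.10 and 0.0121 under the first 2 of these settings, and from -0.13 to 0.0135 when 1 library was left out. Judged by Pearson correlation in place of distance, 1 of 5 closest genes was shared for NDRG1, 2 of 3 for NDRG2, 1 of 3 for NDRG3 and 0 of 3 for NDRG4. The depth of the smallest library limits NDRG4 most, with 66 counts there.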
